A study of Mus musculus with 6 samples.

Results

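The genes described here encode ion channels, solute transporters and a carrier protein of the retinal pigment epithelium (RPE). They are Best1, Kcnj13, Slc16a8, Slc16a1, Slc6a20a, Trpm3, Ttr, Slc4a2, Slc12a2 and Atp1b1, 10 genes given as a list by symbol and matched to the Ensembl identifiers of the count tables. All 10 were among the 15663 genes listed in every library, and all 10 were among the 13454 genes tested. RNA was sequenced from the RPE-choroid of 3 untreated control mice and 3 mice with subretinal fibrosis (SRF), 1 library per mouse. All were male C57BL/6J mice (C57BL/6 in the labels), supplied at 8 to 10 weeks of age, with no genetic change. The SRF eyes received 4 laser burns around the optic nerve head and, after 10 days, a second burn on every lesion, and RNA was extracted 20 days after the second laser. Each SRF library held the lesions together with the tissue around them. In bulk RNA, fewer RPE cells, less RNA per RPE cell and a different share of RNA from other cells cannot be told apart.

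The RPE is a single layer of pigmented cells between the photoreceptors and the choroid, and it works as a transporting epithelium. The sodium pump, unusually for an epithelium, sits on the apical face towards the photoreceptors. It drives potassium recycling through Kcnj13 and chloride uptake through Slc12a2, and chloride leaves on the basolateral side with water following. Lactate from the photoreceptors is taken up by Slc16a1 and passed to the blood by Slc16a8. Photoreceptors depend on this transport for a stable ionic surrounding, for removal of water and lactate and for the supply of vitamin A.

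Counts over the listed genes summed to between 13667310 and 24356023 per library. Only Best1 among the 10 genes had few counts, 42 to 109 per library. The tissue label was checked with 18 RPE reference genes outside the list, all of which were listed in every library. Their summed level was 44851 to 50063 normalized CPM (counts scaled to a common library size) in control mice and 31711 to 37426 CPM in SRF mice. Rgr alone was at 24327 to 27113 CPM in control and 13990 to 17560 CPM in SRF mice. Of the 18 genes, 13 were lower and 5 higher in SRF. Control mouse 1 and SRF mouse 3 stood apart from the others, with 14397 and 13776 CPM over 16 photoreceptor genes against 802 to 1949 CPM in the remaining 4 libraries. The 14 macrophage genes summed to 1655 to 2119 CPM in control and 3885 to 5583 CPM in SRF mice. The part of photoreceptor and macrophage RNA in the results below was not tested, beyond an alternative fit with the photoreceptor level as covariate. Values without control mouse 1 and SRF mouse 3 are given where the call, the sign or the size (by about 1.5 times or more) differed.

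The start regions of 8 of the 10 genes were taken from RefSeq on GRCm38.p6, each from 250 bases before to 50 bases after an annotated start. They were searched on both strands for TAATCC, the core of the motif of the RPE factor OTX2, and for CATGTG and CACGTG, E-boxes of the kind bound by the pigment cell factor MITF. The 4 regions printed here hold the 3 matches found among the 10 start regions of these genes, and the pair of lactate transporters. Capitals mark a match, and each sequence is written 5′ to 3′ on the strand of the gene.
Best1, reverse strand, chr19:10001584-10001883: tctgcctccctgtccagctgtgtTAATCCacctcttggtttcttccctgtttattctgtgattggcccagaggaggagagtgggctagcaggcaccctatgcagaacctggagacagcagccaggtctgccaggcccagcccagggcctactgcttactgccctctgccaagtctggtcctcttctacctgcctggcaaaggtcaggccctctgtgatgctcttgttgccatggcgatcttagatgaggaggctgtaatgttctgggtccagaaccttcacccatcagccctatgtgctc
Kcnj13, reverse strand, chr1:87394680-87394979: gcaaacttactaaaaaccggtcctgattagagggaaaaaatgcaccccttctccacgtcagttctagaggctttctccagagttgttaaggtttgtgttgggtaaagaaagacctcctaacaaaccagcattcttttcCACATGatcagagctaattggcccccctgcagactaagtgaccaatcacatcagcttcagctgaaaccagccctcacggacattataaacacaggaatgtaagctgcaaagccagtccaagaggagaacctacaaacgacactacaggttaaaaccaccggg
Slc16a8, reverse strand, chr15:79254699-79254998: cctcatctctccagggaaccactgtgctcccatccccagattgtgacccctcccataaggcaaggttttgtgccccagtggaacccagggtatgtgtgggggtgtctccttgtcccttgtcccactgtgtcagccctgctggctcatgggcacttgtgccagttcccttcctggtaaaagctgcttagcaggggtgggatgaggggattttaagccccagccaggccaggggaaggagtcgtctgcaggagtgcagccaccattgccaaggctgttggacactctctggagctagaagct
Slc16a1, forward strand, chr3:104638414-104638713: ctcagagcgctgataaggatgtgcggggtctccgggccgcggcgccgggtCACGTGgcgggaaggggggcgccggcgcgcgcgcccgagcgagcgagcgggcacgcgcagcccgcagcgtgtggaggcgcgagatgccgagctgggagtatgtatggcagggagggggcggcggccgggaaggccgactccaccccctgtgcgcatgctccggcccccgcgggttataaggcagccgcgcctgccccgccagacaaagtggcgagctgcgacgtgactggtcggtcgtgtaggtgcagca
In Best1 the match was TAATCC from position -227 relative to the start, in Kcnj13 it was CATGTG on the other strand from position -112, and in Slc16a1 it was CACGTG from position -200. No match was found in the window of Slc16a8, nor in those of Slc6a20a, Trpm3, Slc4a2 and Atp1b1. Of 32851 start regions of the same length, 7.06% held TAATCC, 14.2% CATGTG and 7.15% CACGTG, and 26.2% held at least 1 of these motifs. A match is a match of letters and no measure of binding.

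The levels of the genes spanned more than 3 orders of magnitude when compared per transcript length, as FPKM, fragments scaled by transcript length and library size. Ttr, which encodes transthyretin, a secreted carrier of thyroxine and of retinol-binding protein, was the highest at 8125 ± 1861 FPKM (SD, n = 3) in control mice and ranked 6 among the tested genes. Kcnj13 followed at 2648 ± 482 FPKM, ranked 17. Trpm3 was at 568 ± 57.3, Slc16a8 at 422 ± 80.2, Atp1b1 at 253 ± 14.5, Slc6a20a at 189 ± 24.0 and Slc16a1 at 181 ± 6.17 FPKM. Slc4a2 was at 42.3 ± 3.37, Slc12a2 at 19.3 ± 1.13 and Best1 at 1.64 ± 0.448 FPKM. Among neighbours in this order only Slc6a20a and Slc16a1 overlapped in the control mice, and in SRF mice these separated while Trpm3 and Slc16a8 overlapped. Best1, although widely used as a marker of this epithelium, stood far below the rest and ranked 12059 of the 13454 genes.

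Of the 10 genes, 8 were lower on average in SRF mice and 2, Best1 and Slc12a2, were higher. Among all tested genes 49.7% had a lower mean in SRF. The median log2 fold change was -0.26 over the 10 genes and 0.00 over all tested genes. In 5 of them (Kcnj13, Slc16a1, Trpm3, Slc4a2 and Atp1b1) every SRF mouse was below every control mouse in CPM. This held for 6.43% of all tested genes. In FPKM the groups overlapped for Kcnj13, Slc4a2 and Atp1b1 and stayed apart only for Slc16a1 and Trpm3. In 0 of the 10 was every SRF mouse above every control mouse in CPM, against 6.71% of all tested genes. With edgeR and Benjamini-Hochberg adjustment across every tested gene, 0 of the 10 passed an adjusted p-value of 0.05 with a log2 fold change of at least 0.5. The same test called 0% of all tested genes, either way. At an unadjusted p-value under 0.05, 3 of the 10 (Slc16a1, Trpm3 and Kcnj13) were lower and 0 were higher, against 2.85% and 4.16% of all tested genes (7.01% either way). A log2 fold change of at least 0.5 in size was seen in 2 of the 10, Slc16a1 and Kcnj13, and in 8.07% of all tested genes. DESeq2, the tool of the study, called Slc16a1 alone, and 0.334% of all tested genes as lower and 0.803% as higher. Without control mouse 1 and SRF mouse 3, 7 of the 10 were lower. In 6 of the 10 both remaining SRF mice then lay below both control mice, against 24.4% of the genes tested in those 4 libraries.

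**Figure D1:**
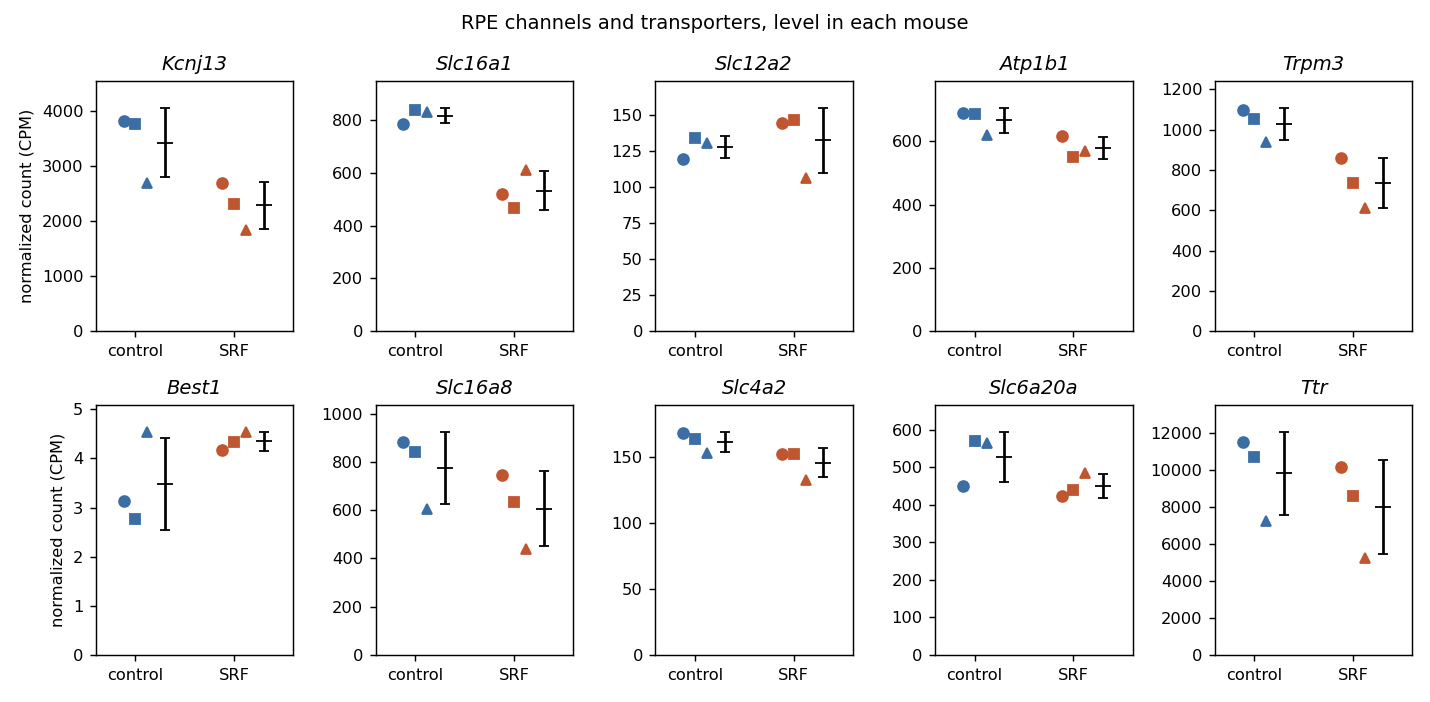
Normalized counts (CPM, y axis from 0) of the 10 genes in each mouse; blue symbols are control and orange symbols SRF mice, circles, squares and triangles are mice 1, 2 and 3, and bars give the mean and SD of 3 mice. Slc16a1 shows the clearest gap, with control mice at 783 to 837 CPM and SRF mice at 466 to 611 CPM, while Ttr and Slc16a8 overlap.

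The lactate transporters were Slc16a1 and Slc16a8. Slc16a1 (ENSMUSG00000032902, chromosome 3, 104638668 to 104658462 of GRCm38, forward strand) encodes the monocarboxylate transporter MCT1. It was at 783, 837 and 831 CPM in control mice 1, 2 and 3 and at 519.5, 466 and 611 CPM in SRF mice 1, 2 and 3. The 2 groups were well separated, and the control mice lay within a CV of 3.58%. The mean in SRF was 34.9% lower, with a log2 fold change of -0.62 (standard error 0.13, 95% interval -0.93 to -0.31). The adjusted p-value was 0.299 in edgeR after Benjamini-Hochberg adjustment, and its unadjusted p-value ranked 98 among all tested genes. DESeq2 gave an adjusted p-value of 0.00201 with a log2 fold change of -0.62. The gene is in the study's own list of changed genes, which was made from these counts. Without control mouse 1 and SRF mouse 3 the log2 fold change was -0.76 and the adjusted p-value in edgeR after Benjamini-Hochberg adjustment was 0.0329, past the threshold. That run was chosen after seeing the data, and edgeR called 153 genes in it, against 0 with every mouse kept. With any 1 mouse left out alone, edgeR did not call Slc16a1. The lowest adjusted p-value of those edgeR runs, after Benjamini-Hochberg adjustment, was 0.191 without SRF mouse 3.

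Slc16a8 (ENSMUSG00000032988, chromosome 15, 79251014 to 79254761, reverse strand) encodes MCT3, whose known expression is largely restricted to the RPE and choroid plexus. It was at 881, 843 and 606 CPM in control and 747, 633 and 440.5 CPM in SRF mice. The groups overlapped, since control mouse 3 was below SRF mice 1 and 2. The log2 fold change was -0.36 (standard error 0.23, 95% interval -0.90 to 0.19, adjusted p = 0.884 in edgeR after Benjamini-Hochberg adjustment). This value depended on the processing. It was -0.61 after a correction for GC content, the transcript being 63.3% GC, and -0.07 without control mouse 1 and SRF mouse 3. The ratio of Slc16a1 to Slc16a8 in FPKM was 0.363, 0.405 and 0.559 in control and 0.284, 0.3005 and 0.566 in SRF mice (exact permutation test of the log2 ratio, two-sided, p = 0.6, n = 3 per group). Mouse 3 of each group had the highest ratio. The difference in log2 ratio was -0.26 and depended on single mice, being -0.57 without SRF mouse 3, -0.08 without SRF mouse 1 and -0.07 without control mouse 3.

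Of 14 other tested genes of monocarboxylate transport, 12 were lower and 2 higher in SRF, with a median log2 fold change of -0.13, and edgeR and DESeq2 called 0 of them. At an unadjusted p-value under 0.05 in edgeR, 2.85% of all tested genes were lower, and so were 2 of these genes. These were Slc16a9, an exporter of carnitine, with 333 ± 12.1 CPM (SD, n = 3) in the control mice against 246 ± 13.4 CPM in the SRF mice (log2 fold change -0.44), and Slc16a6, at 81.1 ± 16.9 and 59.5 ± 3.93 CPM (-0.45). Slc16a9 had an adjusted p-value of 0.00566 in DESeq2 with Benjamini-Hochberg adjustment and missed the fold change threshold. Bsg, which encodes basigin, the chaperone that carries MCT1 and MCT3 to the membrane, was the most abundant of these genes at 3537 ± 228 and 3084 ± 320 CPM, and its groups overlapped (log2 fold change -0.20).

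On the apical side, Kcnj13 (ENSMUSG00000079436, chromosome 1, 87386363 to 87394729, reverse strand) encodes Kir7.1, the inwardly rectifying potassium channel of the RPE. It was at 3822, 3766 and 2701 CPM in control and 2699, 2319.5 and 1844 CPM in SRF mice. The groups did not overlap, but control mouse 3 lay only just above SRF mouse 1, and in FPKM it was below that mouse. The mean was 33.3% lower in SRF (log2 fold change -0.58, standard error 0.19, 95% interval -1.04 to -0.12). The adjusted p-value was 0.556 in edgeR and 0.126 in DESeq2, both with Benjamini-Hochberg adjustment. Without control mouse 3, which had the lowest control value, DESeq2 called the gene (log2 fold change -0.73, adjusted p = 0.0223 with Benjamini-Hochberg adjustment). This run was chosen after seeing the data. Without any other single mouse DESeq2 did not call Kcnj13 (adjusted p = 0.0516 to 0.816 with Benjamini-Hochberg adjustment). Without control mouse 1 and SRF mouse 3 the log2 fold change was -0.37, a smaller difference by more than 1.5 times. Kcnj13 lies within Gigyf2 on the opposite strand, which was at 54.4 to 74.0 CPM.

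Slc12a2 (ENSMUSG00000024597, chromosome 18, 57878678 to 57946821, forward strand) encodes NKCC1, which brings sodium, potassium and chloride into the cell together. It was at 119, 134 and 131 CPM in control and 145, 147 and 106 CPM in SRF mice. SRF mouse 3 was the lowest of all 6 and SRF mice 1 and 2 the highest. The log2 fold change was 0.05 (standard error 0.15), and its 95% interval of -0.31 to 0.40 leaves room for a change of moderate size in either direction. The sign turned in edgeR when SRF mouse 1 (-0.02) or SRF mouse 2 (-0.03) was left out, and without control mouse 1 and SRF mouse 3 the value was 0.13.

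Atp1b1 (ENSMUSG00000026576, chromosome 1, 164437109 to 164458355, reverse strand) encodes the beta 1 subunit of the sodium pump. It was at 691, 687 and 620.005 CPM in control and 616, 549 and 571 CPM in SRF mice. All SRF mice were lower, by a small margin from control mouse 3, and the log2 fold change was -0.20 (standard error 0.11, 95% interval -0.46 to 0.06, adjusted p = 0.827 in edgeR after Benjamini-Hochberg adjustment). In FPKM the groups overlapped.

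Among the 10 other tested genes of the sodium pump and its FXYD regulators, 4 were lower and 6 higher in SRF, with a median of 0.07, 0 called by edgeR or DESeq2 and 0 under an unadjusted p-value of 0.05. The smallest p-values were those of Fxyd3 (log2 fold change -0.33) and Fxyd1 (0.33), which both overlapped between groups. Of the 13 other potassium channel genes tested, 4 were lower and 9 higher, with a median of 0.07 and likewise 0 called and 0 under that p-value. Kcnj8, the pore of a vascular ATP-sensitive channel, was at 46.3 ± 1.06 and 53.7 ± 4.39 CPM without overlap. It was the only 1 of the 13 without overlap, against 13.1% of all tested genes. Kcnj2 was at 9.63 ± 2.54 and 7.31 ± 1.21 CPM. Kcnj14 was the most abundant per length, and it was at 181 CPM in control mouse 1 and 146 CPM in SRF mouse 3, the libraries with most photoreceptor RNA, against 7.89 to 24.0 CPM in the other 4.

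**Figure D2:**
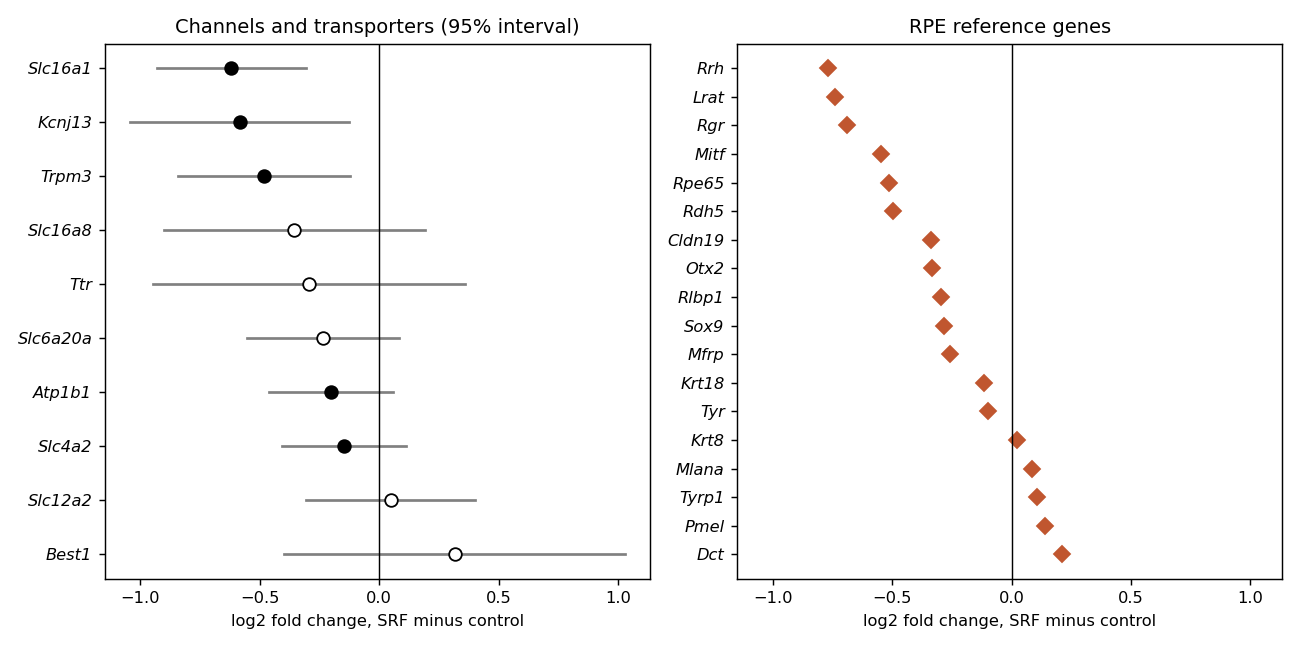
Log2 fold changes (x axis, SRF minus control) from the edgeR fit for the 10 genes with their 95% intervals (left, filled circles mark genes whose groups do not overlap in CPM) and for 18 RPE reference genes (right, point estimates only). The intervals of Slc16a1, Kcnj13 and Trpm3 lie below 0, from -0.93 to -0.31 for Slc16a1, and among the reference genes the values run from -0.77 for Rrh to 0.21 for Dct.

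On the basolateral side, Best1 (ENSMUSG00000037418, chromosome 19, 9985174 to 10001633, reverse strand) encodes bestrophin 1, a calcium-activated chloride channel whose mutation causes Best disease in people. It had only 42, 51 and 109 counts in control and 77, 78 and 81 counts in SRF mice, or 3.13, 2.77 and 4.55 and 4.16, 4.34 and 4.54 CPM. The SRF mice lay inside the range of the control mice. The log2 fold change was 0.32 with a standard error of 0.30 (95% interval -0.40 to 1.03), so that at this depth neither a rise nor a fall of moderate size could be shown. It ranged from 0.17 without control mouse 2 to 0.56 without control mouse 3, and was 0.20 without control mouse 1 and SRF mouse 3. No overlapping gene was annotated, and the transcript length that its counts and FPKM imply, 2076 to 2082 nt, matches the longest annotated transcript of 2080 nt.

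Slc4a2 (ENSMUSG00000028962, chromosome 5, 24423837 to 24440950, forward strand) encodes AE2, which exchanges bicarbonate for chloride. It was at 168, 164 and 153 CPM in control and 153, 152 and 133 CPM in SRF mice. Control mouse 3 exceeded SRF mouse 1 by less than 1 CPM, and in FPKM the groups overlapped. The log2 fold change was -0.15 (standard error 0.11, 95% interval -0.41 to 0.11, adjusted p = 0.930 in edgeR after Benjamini-Hochberg adjustment). It was -0.28 after the GC correction and -0.06 without control mouse 1 and SRF mouse 3. Slc4a2 overlaps Fastk on the opposite strand, at 46.9 to 57.4 CPM, and whether counting used the strand is not given in the sources used here. The log2 ratio of Slc12a2 to Slc4a2 was -0.34 ± 0.14 in control and -0.15 ± 0.15 in SRF mice (exact permutation test, two-sided, p = 0.3, n = 3 per group).

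Of 17 other chloride channel genes tested, 9 were lower and 8 higher, with a median of -0.00083, 0 called by edgeR or DESeq2 and 0 under an unadjusted p-value of 0.05. Ano1, another calcium-activated chloride channel, was at 35.8 ± 7.11 and 46.4 ± 1.26 CPM (log2 fold change 0.37) and Best3 at 5.96 ± 0.698 and 4.16 ± 1.35 CPM (-0.52), both without overlap between groups. These were the only 2 of the 17 genes without overlap, against 13.1% of all tested genes. Clic6 was the most abundant, at 352 ± 41.5 and 382 ± 52.0 CPM. Of 21 genes of chloride and bicarbonate cotransport and the carbonic anhydrases, 10 were lower and 11 higher (median 0.02, 0 called by edgeR or DESeq2). At an unadjusted p-value under 0.05, 2 were lower and 1 was higher, against 2.85% and 4.16% of all tested genes. Car14, a membrane-bound carbonic anhydrase of the RPE, averaged 1844 ± 163 CPM in the control mice against 1372 ± 149.7 CPM in the SRF mice (log2 fold change -0.43). Car12 was at 589 ± 7.50 and 453 ± 53.8 CPM (-0.38). The groups did not overlap for either, and neither passed adjustment (adjusted p = 0.478 and 0.539 in edgeR after Benjamini-Hochberg adjustment). Of these 21 genes, 4 did not overlap between groups, against 13.1% of all tested genes.

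Trpm3 (ENSMUSG00000052387, chromosome 19, 22139046 to 22995410, forward strand) encodes a calcium-permeable channel of the TRP family and carries Mir204, a microRNA gene of the RPE, in the same orientation. It was at 1094, 1049.7 and 940.2 CPM in control and 859, 736 and 613 CPM in SRF mice. The groups did not overlap in counts or in FPKM. The mean was 28.4% lower (log2 fold change -0.48, standard error 0.15, 95% interval -0.84 to -0.12). The adjusted p-value was 0.516 in edgeR and 0.104 in DESeq2, both with Benjamini-Hochberg adjustment. Without SRF mouse 1, which had the highest SRF value, DESeq2 called it (log2 fold change -0.61, adjusted p = 0.00562 with Benjamini-Hochberg adjustment). This run was chosen after seeing the data. Without any other single mouse DESeq2 did not call Trpm3 (adjusted p = 0.0872 to 0.723 with Benjamini-Hochberg adjustment). Without control mouse 1 and SRF mouse 3 the log2 fold change was -0.32.

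The deposited counts and FPKM of a gene together give the transcript length by which the authors' tool divided. For Kcnj13, Slc16a8, Slc16a1, Ttr, Slc12a2 and Best1 this implied length varied by at most 0.248% among libraries. For Trpm3 it was 1732, 1779.8 and 1824 nt in control and 1858, 1847 and 1923 nt in SRF mice, longer in every SRF mouse, and far under the longest annotated transcript of 12305 nt. For Slc4a2 it ranged over 13.9% without separating the groups. Among 1867 genes of at least 10 FPKM whose implied length varied by more than 5%, 4.12% were longer and 7.93% shorter in every SRF mouse. The fold change of Trpm3 in FPKM thus includes a length term that its counts do not hold, and the isoforms behind it were not analysed here. Mir204 itself was not analysed here.

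Of the 15 other TRP and L-type calcium channel genes tested, 9 were lower and 6 higher (median -0.02), with 0 called by edgeR or DESeq2 and 0 under an unadjusted p-value of 0.05. Trpv4, an osmotically sensitive channel, was at 67.6 ± 8.45 and 55.7 ± 3.76 CPM (log2 fold change -0.28), Trpm7 at 98.4 ± 14.8 and 83.2 ± 6.04 CPM (-0.24) and Trpm1, which hosts Mir211, at 349 ± 70.8 and 319 ± 10.8 CPM (-0.13). The groups overlapped in all 3.

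Slc6a20a (ENSMUSG00000036814, chromosome 9, 123634770 to 123678885, reverse strand) encodes a sodium-coupled transporter of proline and related imino acids. It was at 452, 570.4 and 565 CPM in control and 423, 440.4 and 485 CPM in SRF mice. Control mouse 1 was below SRF mouse 3, so the groups overlapped, and the log2 fold change was -0.24 (standard error 0.13, 95% interval -0.55 to 0.08). Without control mouse 1 and SRF mouse 3 it was -0.40 (adjusted p = 0.169 in edgeR after Benjamini-Hochberg adjustment). The paralogue Slc6a20b was at 2.42 ± 0.233 and 2.61 ± 0.757 CPM. Of 15 other carriers of amino acids and osmolytes, 9 were lower and 6 higher (median -0.16). In edgeR 1 was lower and 1 higher at an unadjusted p-value under 0.05, against 2.85% and 4.16% of all tested genes. The groups did not overlap in 3, against 13.1%. Slc6a13, the GABA and taurine transporter GAT2, was at 453, 509 and 444 CPM in control and 322, 279 and 281 CPM in SRF mice. Its log2 fold change was -0.67, and DESeq2 called it (adjusted p = 4.04e-05 with Benjamini-Hochberg adjustment), while edgeR with the same adjustment gave 0.227. Slc3a2, the heavy chain of several amino acid exchangers, was the most abundant per length, at 428 ± 70.6 and 429 ± 37.7 CPM.

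Ttr (ENSMUSG00000061808, chromosome 18, 20665280 to 20674321, forward strand) took between 0.528% and 1.13% of all counts of a library, and it was at 11535.5, 10695.5 and 7258 CPM in control and 10190.2, 8626 and 5238 CPM in SRF mice. The groups overlapped, with control mouse 3 below SRF mice 1 and 2. The log2 fold change was -0.29 (standard error 0.28, 95% interval -0.95 to 0.36), and without control mouse 1 and SRF mouse 3 it was 0.06, with the sign turned. Of 9 other tested genes of retinol and thyroid hormone carriage, 8 were lower and 1 higher, with a median of -0.33. In edgeR 2 of them were lower at an unadjusted p-value under 0.05, against 2.85% of all tested genes, and 3 did not overlap between groups, against 13.1%. Slco1a4, an organic anion transporter that also carries thyroid hormones, was at 324, 332 and 358 CPM in control and 225, 199.7 and 253 CPM in SRF mice. Its log2 fold change was -0.58, and DESeq2 called it (adjusted p = 0.00391 with Benjamini-Hochberg adjustment), against 0.303 in edgeR. Of the 3 water channel genes, Aqp4 was at 32.5 ± 10.7 and 48.0 ± 22.9 CPM and Aqp1 at 216 ± 52.8 and 189.9 ± 7.04 CPM, and none passed a test.

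Over the wider lists together, 117 further channel and transporter genes were tested. Of these, 67 were lower and 50 higher in SRF, with a median of -0.05. The groups did not overlap in 15 of them, against 13.1% of all tested genes. DESeq2 called 2 as lower, Slc6a13 and Slco1a4, and 0 as higher, against 0.334% and 0.803% of all tested genes, and edgeR called 0. At an unadjusted p-value under 0.05 in edgeR, 7 were lower and 2 higher, against 2.85% and 4.16%. Both called genes are also in the study's own list of changed genes, made from these counts.

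The 10 genes did not all follow the same order of mice, though some of them shared much of it. In Ttr, Slc16a8, Kcnj13, Trpm3 and Slc4a2 control mice 1 and 2 were the highest and SRF mouse 3 the lowest. Control mouse 3 lay above SRF mice 1 and 2 in Kcnj13, Trpm3 and Slc4a2 and below both in Ttr and Slc16a8. On the log2 scale, centred over the 6 mice, SRF mouse 3 was at -0.72 for Ttr, -0.613 for Slc16a8, -0.585 for Kcnj13, -0.497 for Trpm3 and -0.206 for Slc4a2. Slc16a1 had another order, with SRF mouse 3 the nearest to the controls at -0.105 and SRF mouse 2 the lowest at -0.496. Slc6a20a was like it in that SRF mouse 3 was the highest of the SRF group. Measured as the mean absolute difference of centred log2 CPM over the 6 libraries, the genes nearest to Slc16a1 outside the list were Slco1a4 (0.0406), Trhde (0.0645) and Tspan3 (0.0657). The nearest of the other 9 genes was Slc6a20a, at 0.199. The genes nearest to the median profile of all 10 were Tecpr2, Scp2, Ociad1, Ndufb6 and Slc25a4, at 0.0243 to 0.0350, and Atp1b1 was the nearest of the 10 themselves (0.0579). In both cases the outside genes were picked from a far larger pool, so distances inside and outside the list cannot be compared.

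**Figure D3:**
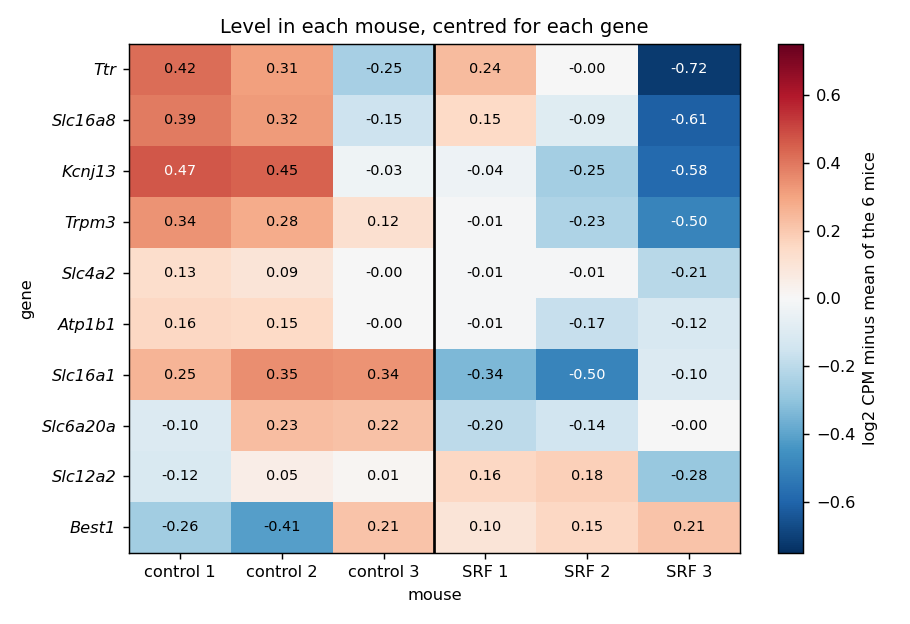
Level of each gene (rows) in each mouse (columns) as log2 CPM minus the mean of that gene over the 6 mice; red is above and blue below the mean, and the vertical line divides control from SRF. Ttr, Slc16a8, Kcnj13 and Trpm3 are lowest in SRF mouse 3 (-0.72 to -0.497), whereas Slc16a1 is lowest in SRF mouse 2 (-0.496).

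The RPE reference genes were lower in SRF as well, but unevenly. Of the 18, 13 were lower and 5 higher, with a median log2 fold change of -0.29. The visual cycle genes Rrh (-0.77), Lrat (-0.74) and Rgr (-0.69) were called by DESeq2, which called 0.334% of all tested genes as lower. Rpe65 (-0.51), Rdh5 (-0.50) and Rlbp1 (-0.30) were lower but not called, and so was the pigment cell factor Mitf (-0.55). Of the pigment genes, which choroidal melanocytes also express, Mlana (0.09), Tyrp1 (0.11), Pmel (0.14) and Dct (0.21) were above 0 and Tyr (-0.10) below it. The mean log2 level of the list was 9.26 ± 0.17 in control and 9.01 ± 0.17 in SRF mice (SD, n = 3), and the groups overlapped (exact permutation test, two-sided, p = 0.2). Cldn19 of the list was at 0.223 CPM in control mouse 1, about 3 counts, against 4.94 and 4.01 CPM in control mice 2 and 3. This low value pulls down the list mean of control mouse 1, and the mean without Cldn19 was not computed. Set against the mean of log2(CPM + 0.5) over all 18 genes in the same library, the 10 genes lay in both directions. Trpm3 was lower relative to the list in every SRF mouse, by 0.24 on average, and Slc12a2 was higher in every SRF mouse, by 0.29 (exact permutation test, two-sided, p = 0.1 for each, the lowest value possible with 3 mice per group). Slc16a1 differed by -0.37 and Kcnj13 by -0.33, with overlap between the groups (exact permutation p = 0.2 and p = 0.3), and Best1 by 0.56 (exact permutation p = 0.2). The other 5 differed by -0.12 to 0.10 with exact permutation p-values from 0.5 to 0.9. No p in this family of 10 could pass a threshold of 0.05. These values depended on how the list was summarised. With its median in place of its mean, Slc12a2 differed by only 0.07 (exact permutation p = 0.8), Trpm3 by -0.46, Kcnj13 by -0.55 and Slc16a8 by -0.33 (exact permutation p = 0.1 for each of these 3), Slc16a1 by -0.59 (exact permutation p = 0.3) and Ttr by -0.28 (exact permutation p = 0.3).

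**Figure D4:**
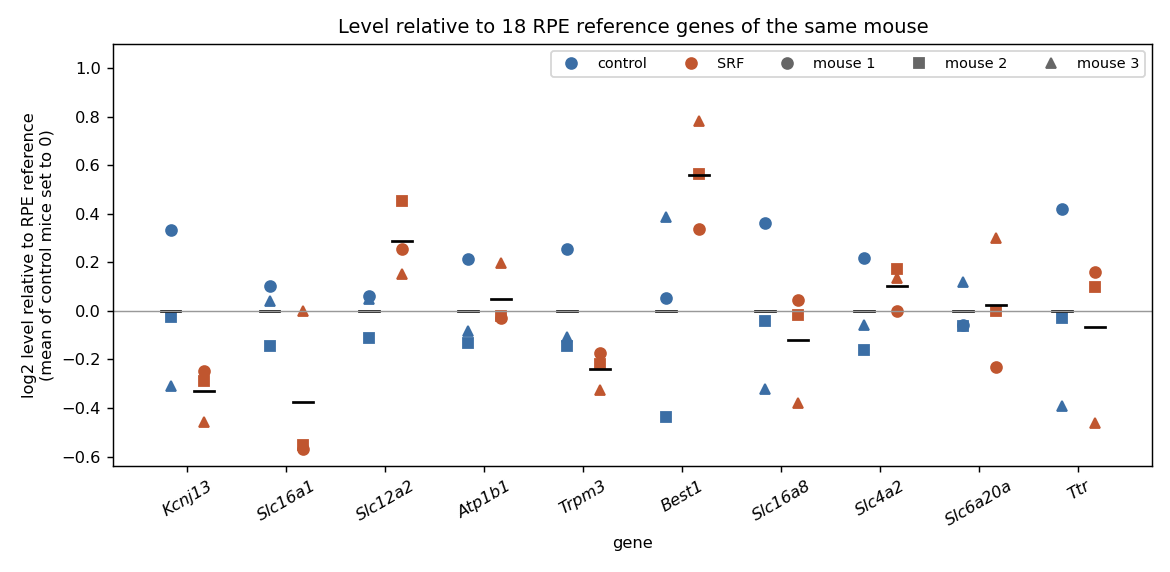
Log2 level of each gene relative to the mean of 18 RPE reference genes in the same mouse, with the control mean set to 0 (y axis); blue is control, orange is SRF, symbols are mice 1, 2 and 3, and bars are group means. On this scale Trpm3 (mean difference -0.24) and Slc12a2 (0.29) separate the groups and the other genes overlap, but against the median of the list Slc12a2 differs by 0.07.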

How the data were processed

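RNA-seq of RPE-choroid from 3 control and 3 SRF mice was analysed, grouped by sample title. The authors filtered reads with FASTP, counted reads per gene with StringTie and deposited whole-number counts without normalization. They also deposited FPKM values, scaled by transcript length and library. The aligner, genome build, annotation and strand setting are not given in the sources used here. The tables list only genes with at least 1 count in every library. GENCODE M21 on GRCm38 held 15659 of the 15663 identifiers and gave symbols, positions and GC content.

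The study's filter was kept, so a gene entered the test if 2 or more libraries held over 50 counts of it. The test was that of edgeR 4.0.16 (R 4.3.3), with TMM normalization (factors 0.978 to 1.03), quasi-likelihood in its installed default form and the group as the only term. Benjamini-Hochberg adjustment covered the 13454 genes that entered, and a call required an adjusted p below 0.05 together with a log2 fold change of 0.5 or more in size. The median standard error was 0.19. CPM values carry the TMM factors, a value after ± is the SD of 3 mice, and standard errors and 95% intervals come from the quasi-likelihood fit. Levels relative to the RPE reference list used log2(CPM + 0.5). Single values were compared by exact permutation of mice (scipy 1.17.1), which cannot go below 0.1. The labels do not say whether libraries with the same number are related.

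DESeq2 1.42.0, limma 3.58.1 on log2(FPKM + 1) and log2(FPKM + 0.1), other scalings and filters, a GC correction, the photoreceptor level as covariate, a replicate block and dropping every mouse in turn were alternatives. DESeq2 with mice left out and both tests without control mouse 1 and SRF mouse 3 were chosen after seeing the data. The tests were first run on simulated counts. The genes and lists were chosen with earlier results of these data known. Beyond the 10 genes and the genes most like them in pattern, the text names genes of each wider list that DESeq2 or edgeR called, or otherwise the 2 with the smallest p, and the one with the highest mean FPKM. Some results under this rule are not reported here. Sequences of Ttr and Slc12a2 were not used here.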

Additional observations from a re-analysis of the deposited data

How the results depend on the processing

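Over all alternatives, 7 to 9 of the 10 genes were lower in SRF, and for the 10 genes 243 of 260 values kept their direction and their side of the threshold. The number of genes called was 0 with edgeR, 153 with DESeq2, 2 with limma on log2(FPKM + 1) or log2(FPKM + 0.1), and 1 each with the newer quasi-likelihood form, no normalization factor, upper-quartile factors, no filter on low counts, the filterByExpr filter or the photoreceptor covariate. Leaving out 1 mouse gave 0 to 5 calls in edgeR and in DESeq2 246, 90 and 182 without control mouse 1, 2 and 3 and 151, 67 and 343 without SRF mouse 1, 2 and 3. Without control mouse 1 and SRF mouse 3, edgeR called 153 and DESeq2 507 genes. The DESeq2 runs with mice left out and those with 2 mice a group were chosen after seeing the data. The causes were not tested.

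Slc16a1 was called by DESeq2 (-0.62), by DESeq2 without 1 mouse in 5 of 6 cases (-0.654 and -0.605 without control mouse 1 and 3, and -0.603, -0.537 and -0.737 without SRF mouse 1, 2 and 3) and with 2 mice a group in edgeR (-0.76) and DESeq2 (-0.77). DESeq2 called Kcnj13 without control mouse 3 (-0.73) and Trpm3 without SRF mouse 1 (-0.61), and called neither gene in its other runs. Slc12a2 ranged from -0.030 to 0.19 in edgeR with 1 mouse left out and was at -0.0073, -0.020 and -0.036 in DESeq2 without control mouse 1, SRF mouse 1 and SRF mouse 2, and Ttr was at 0.064 in edgeR and 0.061 in DESeq2 with 2 mice a group. With 1 mouse left out, edgeR gave 0.17 to 0.56 for Best1, -0.53 to -0.16 for Slc16a8, -0.50 to -0.05 for Ttr and -0.19 to -0.08 for Slc4a2. Among other genes named, the sign turned for Kcnj14 (-2.70 to 1.54 with 1 mouse left out), Slc6a20b (-0.091 to 0.32), Aqp1 (-0.35 to 0.0047) and Slc3a2 (-0.10 to 0.13). Slc3a2 was also at -0.0048 in DESeq2, -0.0047 with RLE factors, -0.0026 with no filter, -0.00096 with filterByExpr, -0.016 with the photoreceptor covariate and -0.065 after the GC correction. Relative to the RPE list, leaving out 1 mouse gave -0.28 to 0.063 for Slc16a8, -0.12 to 0.15 for Slc6a20a, -0.26 to 0.14 for Ttr and -0.023 to 0.16 for Atp1b1, and the median of the list in place of the mean gave -0.19 for Slc6a20a, -0.11 for Slc4a2 and -0.17 for Atp1b1, and 0.07 for Slc12a2 where the mean gave 0.29.

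Mice with the same replicate number were different animals, and their deviations correlated at -0.481, 0.481 and -0.303 across genes, so the numbers were not taken as pairs. With a replicate block edgeR called 0 genes, and Slc16a1 was at -0.63, Kcnj13 at -0.58 and Trpm3 at -0.49.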
